A study of Mus musculus with 6 samples.

Results

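A set of 10 neuropeptide genes of the forebrain was followed across single nuclei: Sst, Npy, Vip, Cck, Crh, Pnoc, Tac2, Cort, Nts and Trh. They were chosen by name, as the rows of the count matrix with these gene symbols, and each symbol had 1 row, so that 10 of 32285 genes are described. The nuclei came from flash-frozen forebrains of mice at postnatal day 16, 3 wild-type and 3 Npc1-/- littermates. Both genotypes were F1 hybrids of BALB/cJ and C57BL6/J, and the Npc1-/- mice carried the Npc1nih loss-of-function allele of the cholesterol transporter gene Npc1 in every cell. Nuclei were released with a Dounce homogenizer and sequenced from the 3′ end of transcripts, and a unique molecular identifier (UMI) counts 1 captured RNA molecule. The matrix pools 6 libraries that are told apart only by a number on the cell barcode. No source used here ties such a number to a mouse, so the 6 libraries are given singly, genotypes were not compared, and no test was run.

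Of 75878 barcodes, 75867 nuclei with less than 10% mitochondrial UMIs were kept. Libraries held 8217 to 16118 barcodes with a median of 4471 to 5439 UMIs per nucleus, and 631 of 75245 barcode sequences occurred in more than 1 library. Npc1 itself had between 25.5 and 32.2 counts per 1000000 UMIs (CPM) in the 6 libraries, which are not named by genotype here. The nuclei were clustered without the 10 genes, and clusters were named from fixed marker genes that did not include them. This gave 11 neuronal classes with 30193 nuclei and 10 non-neuronal classes with 29930 nuclei, and 5 clusters stayed unnamed. One of the unnamed, cluster 2, held 5668 nuclei led by Baiap3, a gene of the fixed marker list for subcortical GABA neurons. Its best marker scores were for hypothalamic or other subcortical glutamate neurons (2.43) and cholinergic neurons (2.37). Only 2 markers of the best list were detected and 0 were among the top 10 genes of the cluster, so it was not named. The level in the pooled non-neuronal nuclei (astrocytes, oligodendrocyte lineage, microglia, vascular cells, fibroblasts, ependymal and choroid plexus cells) served as background. These nuclei had a median of 3592 UMIs, against 7587 in the neuronal classes. All intervals below are exact 95% intervals that cover counting error only.

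Neuropeptides are cut from larger precursor proteins, stored in dense-core vesicles and released by neurons to act on G protein-coupled receptors. In the cortex, Sst, Npy, Vip, Cck, Crh, Pnoc, Tac2 and Cort mark kinds of GABAergic interneuron. Those born in the medial ganglionic eminence (MGE) hold the somatostatin and parvalbumin cells, and those born in the caudal ganglionic eminence (CGE) hold the Vip cells and many neurogliaform cells. Cck is also made by many cortical and hippocampal excitatory neurons. Crh, Trh and Nts encode corticotropin-releasing hormone, thyrotropin-releasing hormone and neurotensin, which are best known from the hypothalamus.

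All 10 identifiers in the files matched the GENCODE vM21 annotation of GRCm38 (mm10), and no annotated gene overlapped any of the 10 on either strand. Sst lies at chr16:23889573-23890958 and Cort at chr4:149125034-149126763, both on the minus strand and with 2 exons each. Npy (chr6:49822710-49829507) and Trh (chr6:92242061-92244650) lie on the same chromosome. Vip (chr10:5639218-5647617), Nts (chr10:102481756-102490486) and Tac2 (chr10:127724478-127731768) share another. Cck lies at chr9:121489824-121495694, Crh at chr3:19693401-19695396 and Pnoc at chr14:65400673-65425472. Transcripts were 566 to 1530 bases long, with 97 to 256 codons before the stop codon.

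Cort encodes cortistatin, a relative of somatostatin that binds the same receptors, so the pair is shown at the end of the coding sequence where they are most alike. The 42-base in-frame windows below lie at chr16:23889735-23889776 for Sst and chr4:149125273-149125314 for Cort, in the second coding exon of each gene. They cover codons 102 to 115 of the 116 of Sst and codons 94 to 107 of the 109 of Cort, near the end, where the mature peptides are encoded. Capitals mark the 32 of 42 bases that are identical, written 5′ to 3′ on the coding strand.
Sst: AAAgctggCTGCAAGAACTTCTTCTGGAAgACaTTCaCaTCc
Cort: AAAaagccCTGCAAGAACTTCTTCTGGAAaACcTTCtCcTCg
The longest run of bases shared by the 2 whole transcripts was 21, inside this window, and it was the longest among the 45 pairs of the 10 transcripts, the next being 13.

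UMIs of the peptide genes were spread over neuronal and non-neuronal classes alike, and per nucleus the pooled levels of Sst, Npy, Nts and Trh were about the same in both. Non-neuronal nuclei held between 29.0% of the UMIs of a gene (Pnoc) and 39.5% (Sst). Sst had 12736 UMIs in all, and its pooled level was 0.160 UMIs per nucleus (interval 0.155 to 0.165) in neuronal classes and 0.168 (0.164 to 0.173) in non-neuronal classes. Npy had 0.109 UMIs per nucleus in both. Cck had 0.437 in neuronal and 0.404 in non-neuronal classes, and Nts had 0.0256 and 0.0243. By CPM, the pooled neuronal level was lower, with a log2 ratio to the non-neuronal level of −0.90 (−0.96 to −0.84) for Sst, −0.82 for Npy, −0.75 for Nts and −0.79 for Trh. For Sst and Npy it was above 0 in 0 of 6 libraries. Over the 10 non-neuronal classes, Sst varied only from 0.141 UMIs per nucleus (OPC, oligodendrocyte progenitors) to 0.197 (endothelial). Only 1 of 11 neuronal classes, the MGE-type interneurons, lay above all non-neuronal classes for Sst, and 2 did for Npy and for Vip. The second class for Vip was the MGE-type, at 0.0658 per nucleus, and 66 of its 144 Vip UMIs were in 141 nuclei, subcluster 13I, which stayed unnamed, was led by the CGE-type marker Adarb2 and had high doublet scores in 48.2% of its nuclei. The other 2049 MGE-type nuclei had 0.0381 Vip UMIs (0.0301 to 0.0475), below the 0.0430 of choroid plexus. The plot of UMIs per nucleus by class shows this flat floor, with single classes that rise from it.

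**Figure D1:**
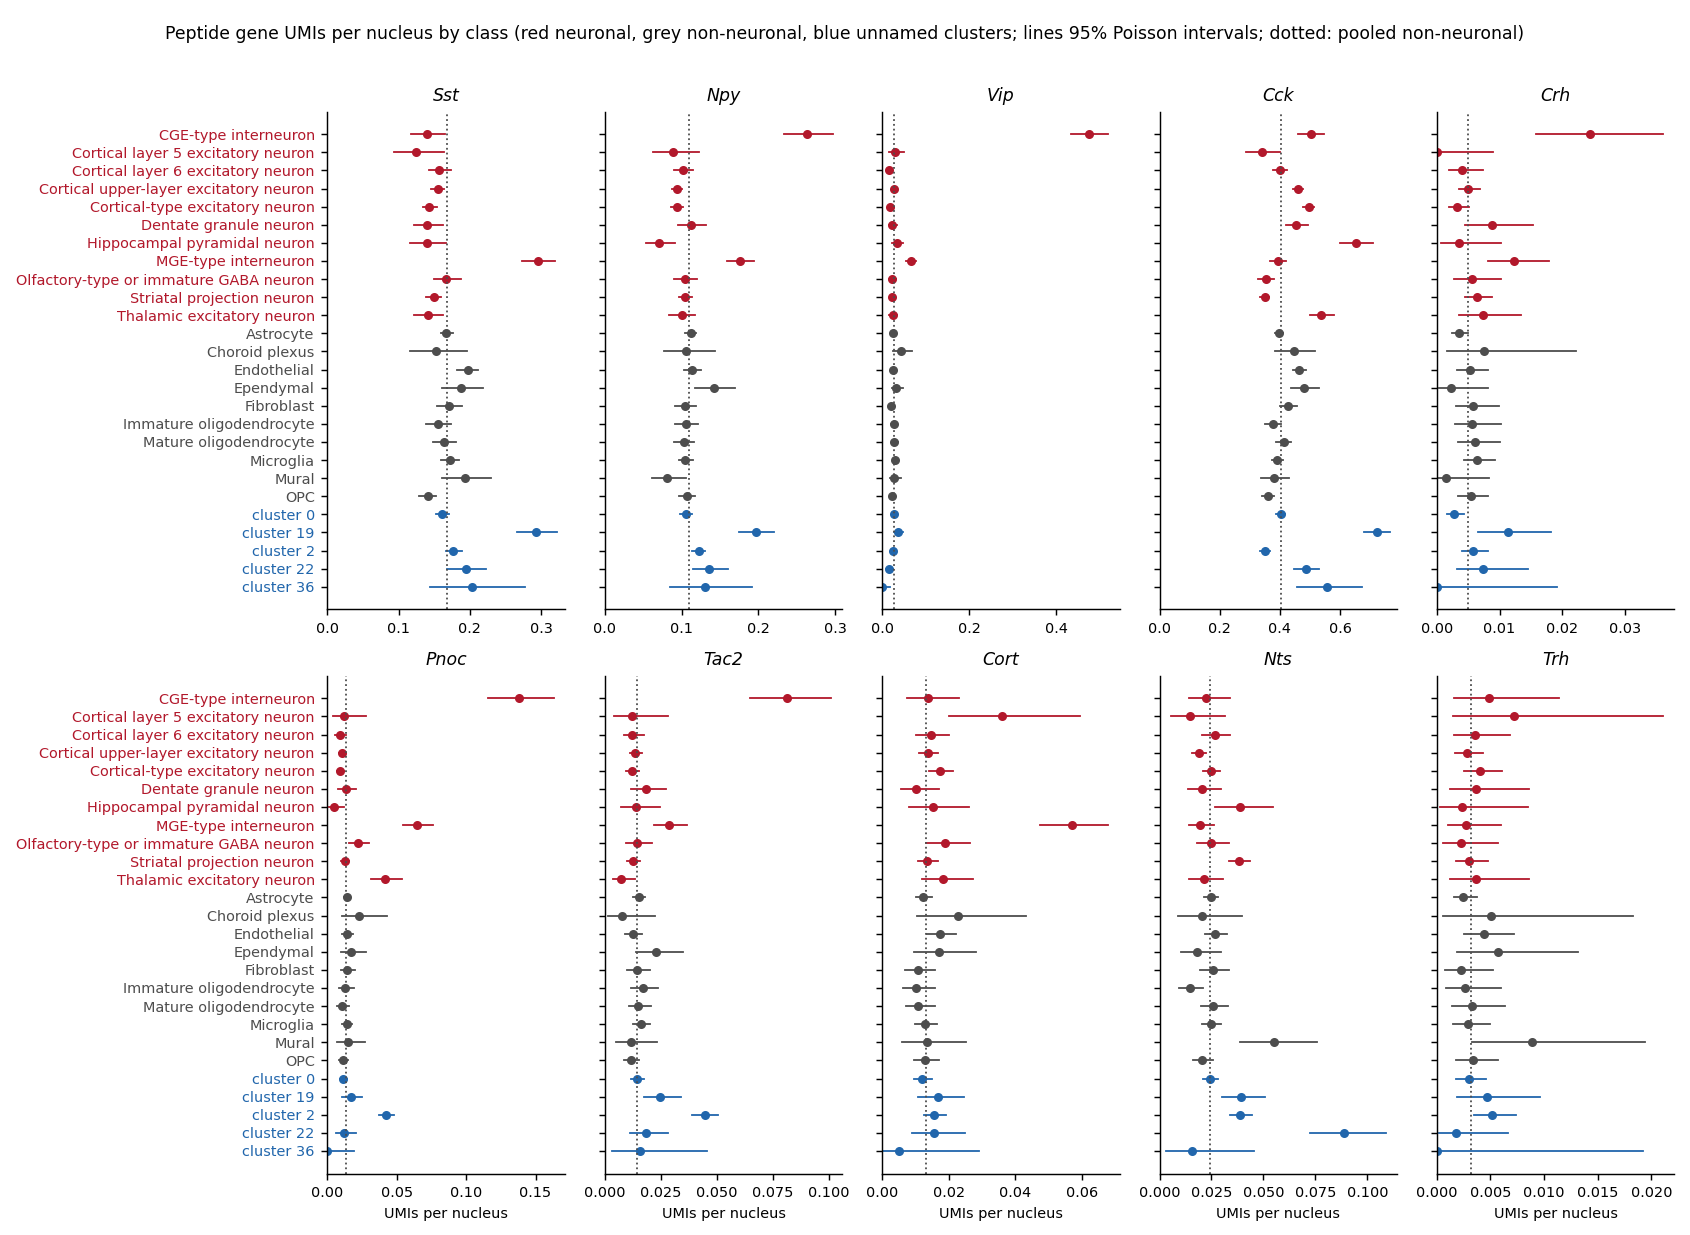
UMIs per nucleus of each gene (x axis, from 0) in the neuronal (red) and non-neuronal (grey) classes and the unnamed clusters (blue), with 95% Poisson intervals as lines and the pooled non-neuronal level as a dotted line. Vip stands at 0.476 in CGE-type interneurons over its own floor of 0.0262, and Sst at 0.295 in MGE-type interneurons over its floor of 0.168.

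The make-up of the peptide UMIs was also alike from one non-neuronal class to the next. Counted as captured UMIs, with no correction for how well each transcript is captured, Cck gave between 48.3% and 53.7% of the 10 genes' UMIs in each of the 10 classes, Sst between 18.2% and 24.4%, and Npy between 10.3% and 15.3%. In CGE-type interneurons, Vip made up 28.6% and Cck 30.1%, and in hippocampal pyramidal neurons Cck made up 66.9%. Among non-neuronal classes, Nts gave the most in mural cells (pericytes and vascular smooth muscle), with 6.95% against a median of 3.12%. Unnamed cluster 19, led by Mbp and mitochondrial transcripts, had 1.36 peptide UMIs per nucleus, with 52.9% Cck, 21.5% Sst and 14.4% Npy. Its nuclei had a median of 2457 UMIs and 0.917% mitochondrial UMIs, and no other class had a median mitochondrial share that high.

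**Figure D2:**
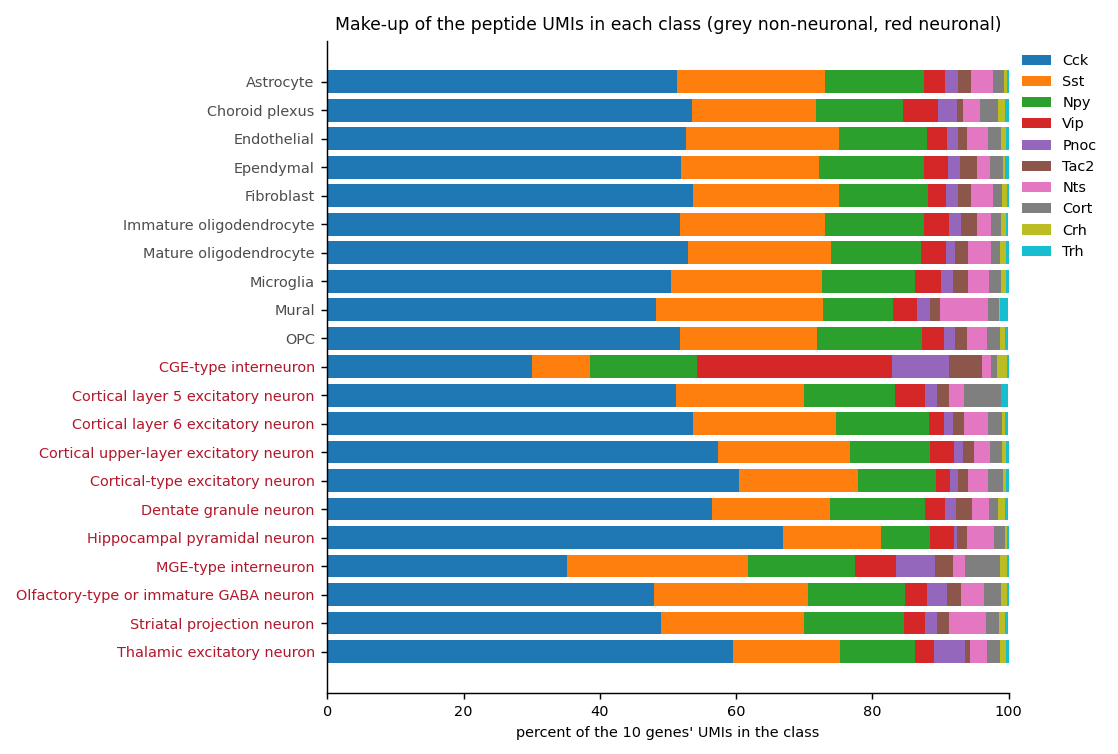
Percent of the UMIs of the 10 genes that each gene contributed (x axis) in the non-neuronal (grey names) and neuronal (red names) classes. The non-neuronal bars are alike, with Cck between 48.3% and 53.7%, and the CGE-type, MGE-type and hippocampal bars differ from them.

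In non-neuronal nuclei, the UMIs of 9 of the 10 genes rose less with depth than the median gene of a like count, and those of Pnoc did not. The nuclei were split into 4 equal parts by their total UMIs within their library, with a median of 2121 UMIs in the shallowest part and 8413 in the deepest. Over all 23512 genes that could be followed, the median gene was 4.24 times as frequent per nucleus in the deepest part as in the shallowest. Sst rose 1.49 times, from 0.138 to 0.206 UMIs per nucleus. Npy rose 1.47 times, Cck 1.52 times and Nts 1.33 times. Only 48 of 5524 genes with a count within 2-fold of that of Sst (0.869%) had a ratio as low, and 14 of 3894 (0.360%) for Cck. Such shares were 1.10% for Npy and 1.93% for Nts. They were larger for Crh (7.71%), Cort (9.61%), Vip (11.4%), Tac2 (11.8%) and Trh (14.2%). Vip (2.29 times), Trh (2.29), Tac2 (2.26), Cort (2.13) and Crh (1.85) lay between, and Pnoc rose 4.18 times, close to the median gene. CPM divides by depth, so Sst in non-neuronal nuclei was at 66.4, 52.0, 39.3 and 19.5 CPM from the shallowest part to the deepest. Neuronal nuclei are deeper, and both scales are therefore given for each gene.

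**Figure D3:**
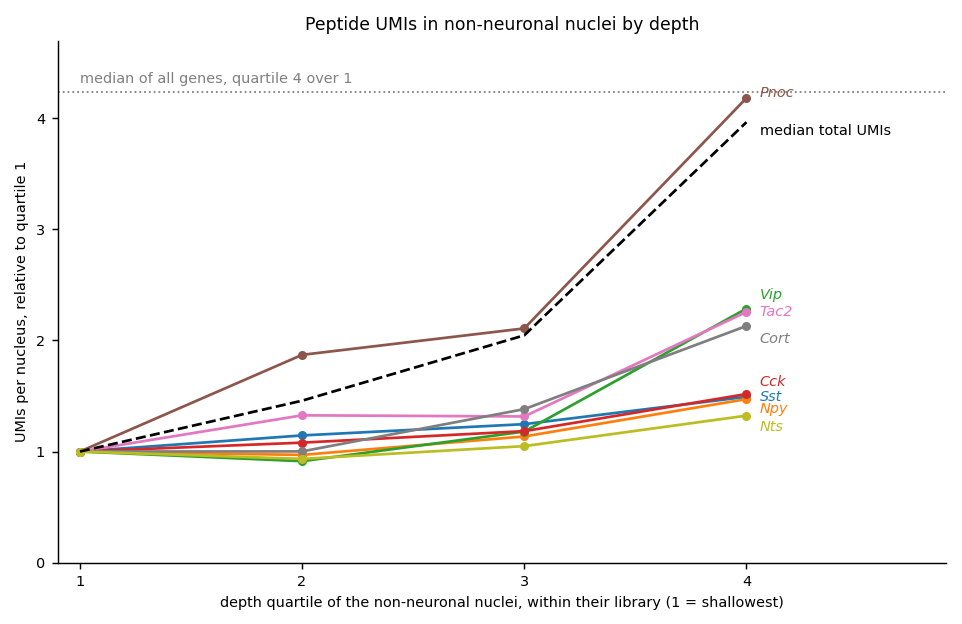
UMIs per nucleus in the 4 depth quartiles of the non-neuronal nuclei, relative to quartile 1 (y axis), for 8 genes (Crh and Trh, with 147 and 96 non-neuronal UMIs, are left out). Median total UMIs (dashed) and Pnoc rise about 4 times, and Sst, Npy, Cck and Nts at most 1.52 times.

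The floor also differed between libraries. Non-neuronal Sst was 0.167, 0.208, 0.211, 0.144, 0.122 and 0.0873 UMIs per nucleus in libraries 1 to 6, and Cck was 0.485, 0.503, 0.521, 0.297, 0.223 and 0.180. Median mitochondrial shares over all nuclei of the same libraries were 0.106%, 0.186%, 0.142%, 0.0718%, 0.0380% and 0.0203%. Both genes were thus lowest in library 6, which also had the lowest mitochondrial share, and highest in libraries 2 and 3, which had the highest. Whether the 2 measures are linked was not tested.

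Sst, which encodes somatostatin, an inhibitory peptide released onto dendrites, was highest per nucleus in MGE-type interneurons among the named classes. The 2190 MGE-type nuclei held 646 Sst UMIs, 0.295 per nucleus (0.273 to 0.319). Per library, the values were 0.297, 0.310, 0.357, 0.221, 0.306 and 0.278, each above the non-neuronal value of the same library. The log2 ratio of UMIs per nucleus over background was 0.81 (0.69 to 0.93), above 0 in 6 of 6 libraries. By CPM the order turned, with 30.6 CPM (28.3 to 33.0) in MGE-type against 33.7 (32.7 to 34.6) in non-neuronal nuclei, and a log2 ratio of −0.14 (−0.26 to −0.02) that was above 0 in 2 of 6 libraries. By share, 20.7% of MGE-type nuclei had an Sst UMI against 14.9% of non-neuronal nuclei. After each nucleus was thinned to 2000 UMIs, the shares were 6.95% (5.91 to 8.10) and 7.98% (7.66 to 8.31). In unnamed cluster 19, led by Mbp and mitochondrial transcripts, the log2 ratio for Sst was 0.80 (0.65 to 0.94) per nucleus, close to the MGE-type value. By CPM it was 1.61 (1.47 to 1.76), and both were above 0 in 6 of 6 libraries. Of cluster 19 nuclei, 23.9% had an Sst UMI, and 18.2% (15.9 to 20.7) after thinning. A single Sst UMI therefore did not mark an MGE-type nucleus. High counts did so more often: 29 of 2190 MGE-type nuclei (1.32%) held 3 or more Sst UMIs, against 59 of 29930 non-neuronal nuclei (0.197%). Of all 176 nuclei with such counts, however, only these 29 were MGE-type. Depth was not evened out here, and MGE-type nuclei had a median of 8135 UMIs against 3592. The highest count, 18 UMIs, was in an MGE-type nucleus.

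Cort stood clear of its floor on both scales in the same class. MGE-type nuclei held 125 Cort UMIs, 0.0571 per nucleus (0.0475 to 0.0680), against 0.0131 (0.0118 to 0.0144) in non-neuronal nuclei. The values in libraries 1 to 6 were 0.0417, 0.0547, 0.0524, 0.0800, 0.0662 and 0.0403, against a non-neuronal range of 0.00311 to 0.0175, so that the 2 sets did not overlap. The log2 ratio was 2.13 (1.83 to 2.42) per nucleus and 1.18 (0.88 to 1.47) by CPM, above 0 in all 6 libraries on both scales. Layer 5 excitatory neurons came next with 15 UMIs, 0.0361 per nucleus (0.0202 to 0.0596), and their interval overlapped that of the MGE-type class.

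Vip had the clearest home. Vasoactive intestinal peptide marks CGE-derived interneurons that inhibit other interneurons. The 1022 CGE-type nuclei held 486 Vip UMIs, 0.476 per nucleus (0.434 to 0.520), or 18.1 times the non-neuronal level of 0.0262 (0.0244 to 0.0281). In libraries 1 to 6 the values were 0.330, 0.433, 0.425, 0.430, 0.693 and 0.624, and the non-neuronal values were 0.0237, 0.0377, 0.0271, 0.0222, 0.0192 and 0.0175. Libraries 5 and 6 thus had the highest CGE-type levels and the lowest floor. The log2 ratio was 4.18 (4.01 to 4.35) per nucleus and 3.61 (3.45 to 3.78) by CPM. Thinned to 2000 UMIs, 11.3% of CGE-type nuclei (9.43 to 13.4) had a Vip UMI against 1.12% of non-neuronal nuclei (0.999 to 1.26), and unthinned the shares were 21.5% and 2.30%. Of 106 nuclei with 3 or more Vip UMIs, 62 were CGE-type.

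Pnoc, the precursor of nociceptin, was the second gene by its CGE-type ratio. CGE-type nuclei held 0.138 Pnoc UMIs per nucleus (0.116 to 0.163), with library values of 0.101, 0.153, 0.134, 0.152, 0.141 and 0.154, against 0.0135 (0.0122 to 0.0148) in non-neuronal nuclei. The log2 ratio was 3.36 (3.07 to 3.64) per nucleus and 2.79 (2.50 to 3.07) by CPM. Pnoc was above its floor in further classes. MGE-type nuclei had 0.0648 per nucleus (0.0546 to 0.0764), cluster 2 had 0.0423 (0.0372 to 0.0481) and thalamic excitatory neurons had 0.0412 (0.0312 to 0.0535). The intervals of the last 2 overlapped. Olfactory-type or immature GABA neurons had 0.0222 (0.0159 to 0.0303). MGE-type nuclei and cluster 2 stayed above the floor by CPM, with log2 ratios of 1.32 (1.03 to 1.60) and 0.89 (0.65 to 1.12). Olfactory-type or immature GABA neurons did so at 0.83 (0.33 to 1.31), above 0 in 4 libraries. Library 3, which had the highest Pnoc floor (0.0185), gave 814 of their 1800 nuclei and 26 of their 40 Pnoc UMIs, and its own log2 CPM ratio was 0.76. Thalamic neurons were above the floor with an interval that reached 0 (0.40, −0.03 to 0.81).

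Tac2, which encodes neurokinin B, was at 0.0812 UMIs per nucleus (0.0647 to 0.101) in CGE-type nuclei and 0.0146 (0.0132 to 0.0160) in non-neuronal nuclei. Its library values were 0.0372, 0.0591, 0.113, 0.0909, 0.110 and 0.0855 in the CGE-type class, all above the highest non-neuronal library value of 0.0177. The log2 ratio was 2.48 (2.12 to 2.82) per nucleus and 1.91 (1.56 to 2.25) by CPM. Cluster 2 followed with 0.0445 (0.0391 to 0.0503), and 108 of its 252 Tac2 UMIs were in 130 nuclei, the subcluster 2N described with the smaller sources. The other 5538 nuclei had 0.0260 (0.0219 to 0.0306).

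Npy was also highest per nucleus in CGE-type nuclei among the named classes, which include neurogliaform cells, a known source of neuropeptide Y. The level there was 0.263 (0.233 to 0.297), with library values between 0.152 in library 4 and 0.379 in library 2, against 0.109 (0.105 to 0.113) in non-neuronal nuclei. The log2 ratio was 1.28 (1.09 to 1.45) per nucleus and 0.71 (0.52 to 0.89) by CPM, above 0 in 6 of 6 libraries on both scales. Thinned to 2000 UMIs, 6.26% of CGE-type nuclei (4.84 to 7.93) had an Npy UMI against 4.99% of non-neuronal nuclei (4.73 to 5.26), so that the intervals overlapped, and unthinned the shares were 19.6% and 9.58%. MGE-type nuclei had 0.176 (0.159 to 0.194), which was above the floor per nucleus with a log2 ratio of 0.69 (0.54 to 0.85) but not by CPM, where it was −0.25 (−0.41 to −0.10). Crh was sparse. CGE-type nuclei held 25 Crh UMIs, 0.0245 per nucleus (0.0158 to 0.0361), against 0.00491 (0.00415 to 0.00577) in the background, and the log2 ratio was 2.32 (1.64 to 2.93) per nucleus and 1.75 (1.08 to 2.37) by CPM. No nucleus held more than 2 Crh UMIs.

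**Figure D4:**
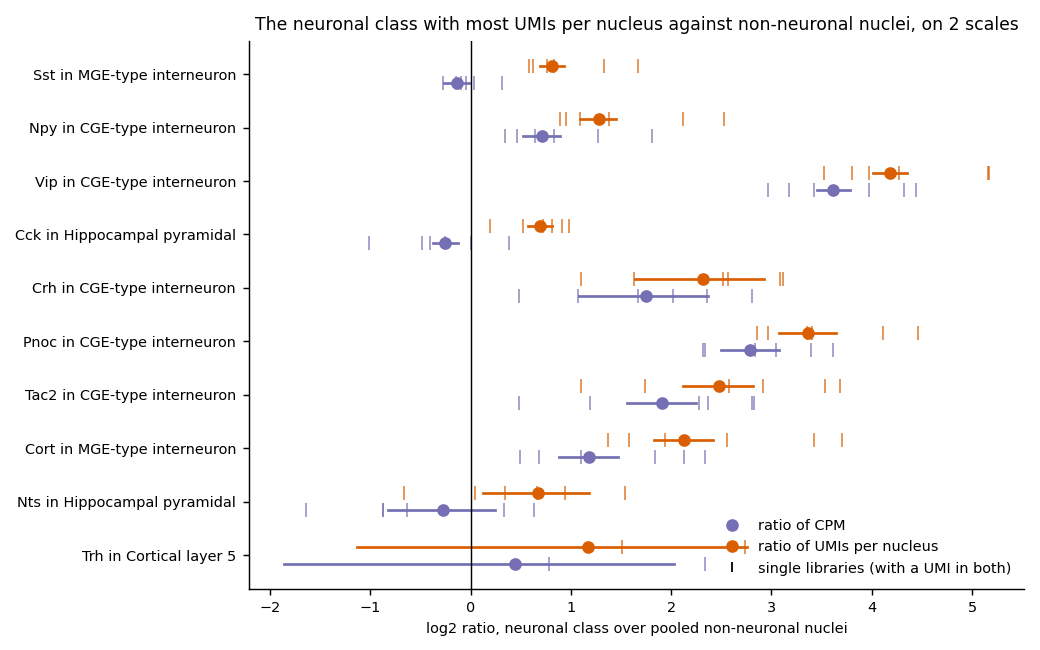
Log2 ratio (x axis) of each gene between its highest named neuronal class and the pooled non-neuronal nuclei, by CPM (purple) and by UMIs per nucleus (orange), with exact 95% intervals as lines and single libraries as ticks. Vip, Pnoc, Tac2, Crh, Cort and Npy lie above 0 on both scales, and Sst, Cck and Nts lie above 0 per nucleus and below 0 by CPM. Trh also lies above 0 on both scales, but its value rests on 3 UMIs.

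Among the named classes, Cck, the precursor of cholecystokinin, was highest per nucleus in hippocampal pyramidal neurons. Its 851 nuclei held 555 UMIs, 0.652 per nucleus (0.599 to 0.709), against 0.404 (0.397 to 0.411) in non-neuronal nuclei. The library values of 0.694, 0.945, 0.860, 0.586, 0.391 and 0.206 moved with the floor and were each above it. Subcluster 27B, described with the smaller sources, held 138 of the 555 UMIs in 110 nuclei, and the other 741 had 0.563 per nucleus (0.510 to 0.619). The log2 ratio was 0.69 (0.57 to 0.81) per nucleus and −0.25 (−0.37 to −0.13) by CPM. Thalamic excitatory neurons followed with 0.538, below the interval of the whole hippocampal class and inside that of its nuclei outside 27B. Then came CGE-type interneurons with 0.502 (0.459 to 0.547) and cortical-type excitatory neurons with 0.496 (0.477 to 0.514), and the last 2 intervals overlapped. Thinned to 2000 UMIs, 12.9% of hippocampal nuclei (10.7 to 15.3) had a Cck UMI, below the 17.2% of non-neuronal nuclei (16.7 to 17.6), and unthinned the shares were 40.2% and 31.1%. In unnamed cluster 19 the shares were above both, at 38.5% (35.5 to 41.6) thinned and 46.7% (44.2 to 49.3) unthinned.

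Nts was close to its floor in the named neuronal classes. Hippocampal pyramidal neurons had 0.0388 UMIs per nucleus (0.0267 to 0.0545), striatal projection neurons 0.0384 (0.0335 to 0.0437) and cluster 2 0.0388 (0.0339 to 0.0443), against 0.0243 (0.0226 to 0.0262) in the background. Of the 33 Nts UMIs of the hippocampal class, 16 were in 56 nuclei, the subcluster 27I described with the smaller sources, and the other 795 nuclei had 0.0214 (0.0125 to 0.0342), so that without 27I the class was not above background. The intervals of the 3 whole groups overlapped, and by CPM their log2 ratios had intervals that held 0. Among the classes and unnamed clusters, the highest Nts levels per nucleus were outside the named neuronal classes. Mural cells had 0.0549 per nucleus (0.0387 to 0.0757), with a log2 CPM ratio of 1.51 (0.99 to 1.98), and the unnamed cluster 22, whose best marker scores were endothelial and mural, had 0.0890 (0.0722 to 0.109), or 1.06 (0.74 to 1.37) by CPM. Cluster 22 was above background in 6 of 6 libraries, and its values ran from 0.0425 in library 1 to 0.245 in library 5. Trh had 255 UMIs in all, 0.00328 per nucleus (0.00266 to 0.00399) in neuronal and 0.00321 (0.00260 to 0.00392) in non-neuronal classes. Its highest neuronal class, the layer 5 neurons, rested on 3 UMIs, and mural cells held 6, or 0.00890 per nucleus (0.00327 to 0.0194).

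Set against all genes, 2 of the 10 were at least 2-fold higher by CPM in MGE-type than in non-neuronal nuclei (Pnoc and Cort), and 7.67% of all 25244 genes with 10 or more UMIs were. In CGE-type nuclei 4 of 10 were (Vip, Pnoc, Tac2 and Crh), beside 7.97% of all genes, and in cluster 2 none of 10 was, beside 9.69%. Nts and Trh were at least 2-fold lower in MGE-type nuclei, beside 31.8% of all genes, and none of the 10 was in CGE-type nuclei or cluster 2, beside 34.4% and 24.3%. The median fold of the 10 was 0.966 in MGE-type, 1.33 in CGE-type and 0.703 in cluster 2, against 0.716, 0.707 and 0.841 over all genes.

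To find smaller sources, each cluster of 200 nuclei or more was clustered again, again without the 10 genes, which gave 397 subclusters of at least 30 nuclei. Each is called by the number of its cluster and a letter. Those named here were picked for their levels after these had been seen, and their levels are a description. Where CPM is not named, their folds over background are per nucleus and are not corrected for depth. Median UMIs per nucleus were 7189 in 24E, 8194 in 27I, 5613 in 2N and 4910 in 27B, against 3592 in non-neuronal nuclei. Among 151 non-neuronal subclusters, Sst reached at most 0.348 UMIs per nucleus, and 10 of the other 246 exceeded this. Vip reached at most 0.169, and 6 exceeded it.

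The richest source of Npy, and one of the richest of Sst, was not in the MGE-type cluster. It was subcluster 2L, with 182 nuclei led by Nos1, Nxph2, Sox6 and Tacr1, which carries the MGE-type markers by the fixed rule. Cortical neurons with Nos1 and Tacr1 are known as long-range GABAergic cells that make both peptides. Whether the nuclei of 2L lay in the cortex was not tested. The CGE-type marker Adarb2 was at 1531 CPM in 2L, beside 1472 CPM for Sox6. Subcluster 2L held 0.786 Npy UMIs per nucleus (0.662 to 0.926), 7.22 times background, and 0.687 Sst UMIs (0.572 to 0.818), 4.08 times background. Npy reached 1.19 in its highest library, Sst ran from 0.407 to 1.32, and both were above the background of their library in all 6. By CPM the log2 ratios were 2.22 for Npy and 1.40 for Sst, and 0.549% of its nuclei were among the tenth of nuclei with the highest doublet scores.

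Within the MGE-type cluster, Sst differed between subclusters. Subcluster 13E, led by Pard3b, Npas1 and Trhde, had 0.631 Sst UMIs per nucleus (0.520 to 0.759), and subclusters 13D, 13M and 13C had 0.619, 0.558 and 0.431. Grin3a, a glutamate receptor subunit gene of somatostatin cells, was at 539 to 1850 CPM in these 4. Subcluster 13N was higher still, at 0.739, but 69.6% of its nuclei had high doublet scores and its median depth was 15195 UMIs. In 7 subclusters Pvalb, the marker of parvalbumin cells, was at 24.4 to 52.9 CPM, and in the other 8 it was at most 14.5 CPM. Of these 7, subclusters 13A, 13B, 13G, 13H and 13J had 0.126, 0.128, 0.146, 0.103 and 0.161 Sst UMIs per nucleus, no more than the non-neuronal 0.168. Subclusters 13F and 13O were above it, at 0.246 and 0.222. High doublet scores were found in 43.2% of the nuclei of 13H, 36.1% of 13O and 10.8% of 13F, and in at most 2.19% of those of the other 4. Cort did not follow Sst over these groups. It was 0.101 (0.0596 to 0.159) in 13E and 0.0868 (0.0522 to 0.135) in 13B, where Sst was at its floor, and 0.0206 in the Sst-rich 13D.

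The CGE-type cluster split by peptide. Vip was at 1.86 UMIs per nucleus (1.55 to 2.21) in subcluster 24G, 1.57 (1.28 to 1.89) in 24I and 1.28 (1.09 to 1.49) in 24B, a group led by Creb5 and Chat, the acetylcholine-synthesizing enzyme. Subclusters 24A, led by Htr1f and Sv2c, and 24C, led by Ndnf and Reln, which mark neurogliaform cells, had Vip at 0.0265 and 0.0270. There Npy reached 0.556 (0.444 to 0.689) and 0.378, and Pnoc 0.205 (0.139 to 0.291) and 0.288 (0.197 to 0.407). Subcluster 24E, led by the vesicular glutamate transporter gene Slc17a8, had 1.02 Cck UMIs per nucleus (0.827 to 1.25), 2.53 times background and above it in all 6 libraries, and 0.223 Tac2 UMIs (0.138 to 0.341). Tac2 was also at 0.246 (0.144 to 0.394) in 24I. Crh rested on 6 UMIs in 24H and 5 in 24G. By the fixed naming rule, subclusters 24B and 24C on their own stayed unnamed.

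**Figure D5:**
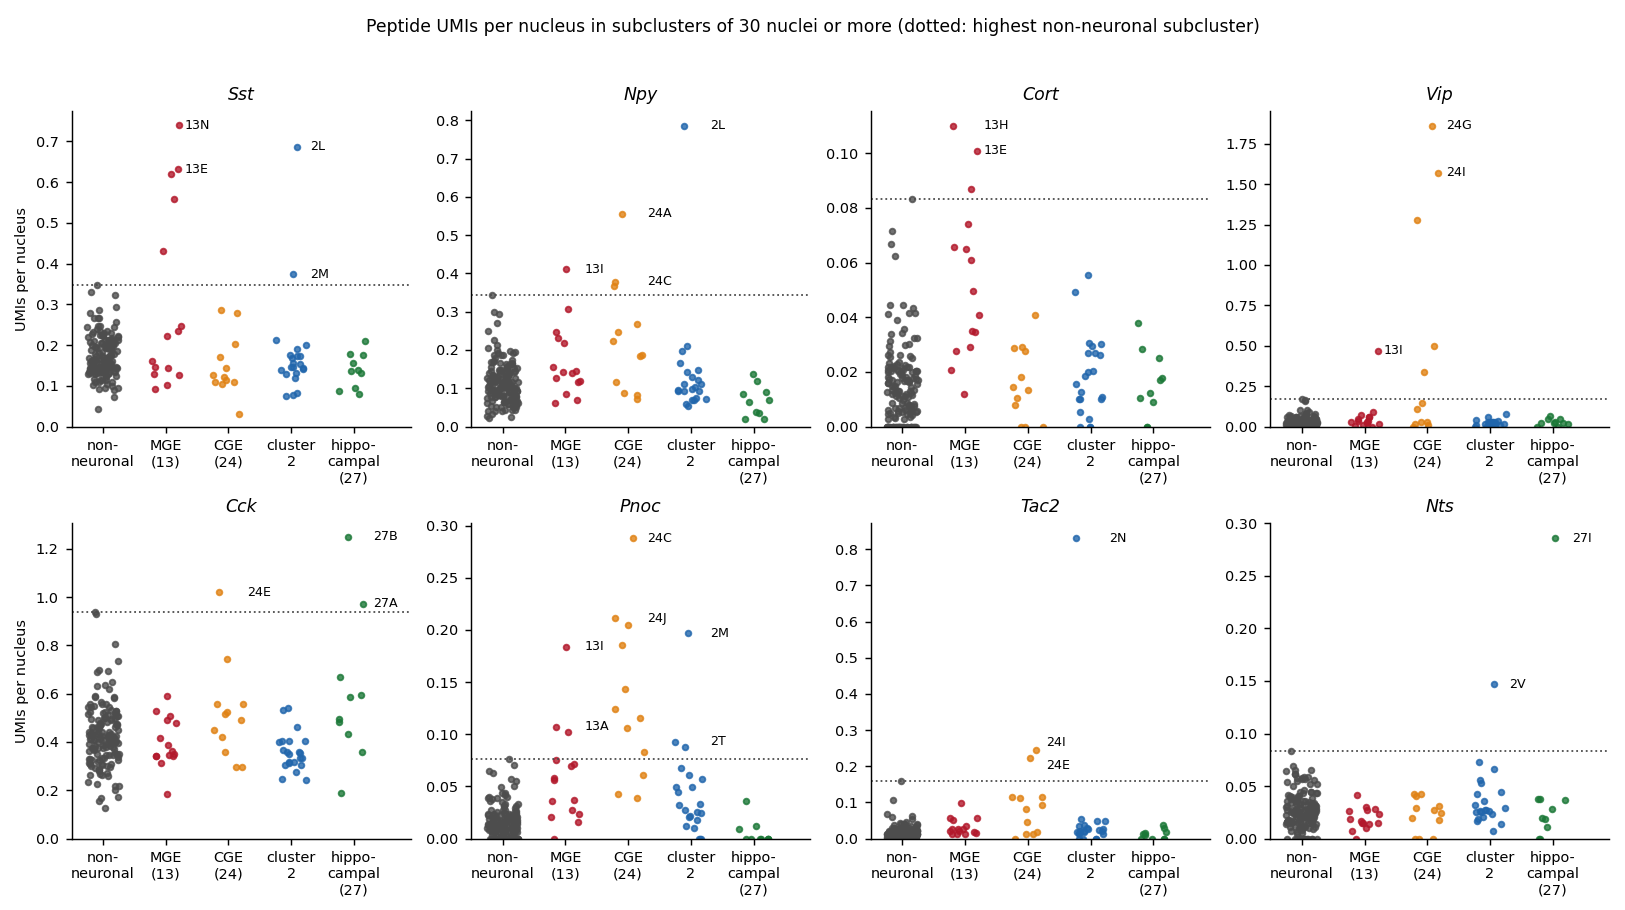
UMIs per nucleus (y axis, from 0) of 8 genes in subclusters of 30 nuclei or more, each point 1 subcluster, from the non-neuronal classes (grey), the MGE-type (red) and CGE-type (orange) clusters, cluster 2 (blue) and the hippocampal cluster (green). The dotted line is the highest non-neuronal subcluster; 2N exceeds it for Tac2 (0.831), 24G for Vip (1.86), 2L for Npy (0.786) and 27I for Nts (0.286).

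Tac2 had its highest level outside the interneurons. Subcluster 2N, with 130 nuclei that carry medial habenula markers by the fixed list, held 0.831 Tac2 UMIs per nucleus (0.681 to 1.00), 57.0 times background. It was above background in 6 of 6 libraries, with values from 0.222 to 1.83, and held 15 of the 29 nuclei in the series with 3 or more Tac2 UMIs. The medial habenula is a small paired nucleus near the thalamus that projects to the interpeduncular nucleus, and neurokinin B is a known product of its neurons. Nts was highest in subcluster 27I, with 56 nuclei from the hippocampal cluster led by Tshz2, Rxfp1 and Npsr1 whose own markers scored best for layer 5 excitatory neurons, at 0.286 UMIs per nucleus (0.163 to 0.464). This was 11.7 times background, from 16 UMIs, and above it in all 6 libraries, where values ran from 0.143 to 0.368. Cck was highest in subcluster 27B of the hippocampal cluster, with 110 nuclei, at 1.25 UMIs per nucleus (1.05 to 1.48), 3.10 times background. Libraries 1, 2 and 3 gave 22, 50 and 33 of these nuclei and had values of 0.773, 1.16 and 1.61, while library 4 gave 4, library 5 gave 1 and library 6 gave 0. The non-neuronal Cck levels of libraries 1, 2 and 3 were 0.485, 0.503 and 0.521, above the pooled level that the fold is taken over. Its leading genes within the cluster included Calm3, Nefl and the mitochondrial mt-Cytb and mt-Nd2. Cck was at 0.972 in subcluster 27A, whose leading genes include Wfs1, a marker of CA1 neurons, close to the highest non-neuronal subcluster at 0.938. Of cluster 2, 3 subclusters took the fixed name for hypothalamic or other subcortical glutamate neurons (2K, 2Q and 2V, with 196, 91 and 34 nuclei). Crh in them was 0.0102, 0 and 0 UMIs per nucleus, Trh 0, 0.0110 and 0, and Nts 0.0255, 0.0659 and 0.147, the last from 5 UMIs.

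Pairs of peptides were then counted in nuclei rich in 1 of them, taken as 3 UMIs or more. Of 29 Sst-rich MGE-type nuclei, 34.5% (17.9 to 54.3) held Npy, against an interval of 11.6 to 14.5% for the other MGE-type nuclei, and 17.2% (5.85 to 35.8) against 4.77% (3.91 to 5.75) held Cort. The rich nuclei were deeper, with a median of 13076 UMIs against 8083, and 6 of 29 had high doublet scores. The differences were also computed with the highest doublet scores left out, which is covered with the other alternatives at the end. In subcluster 2L, 9 of 11 Sst-rich nuclei held Npy (81.8%, 48.2 to 97.7), against 39.8% (32.4 to 47.5) of the rest, with a median of 9372 UMIs against 7354. In the other direction, 52.9% of 17 Npy-rich nuclei there (27.8 to 77.0) held Sst against 36.4% (29.0 to 44.2), and these intervals overlapped. Of 62 Vip-rich CGE-type nuclei, none of which had a high doublet score, 16.1% (8.02 to 27.7) held Tac2 against 6.46% (4.99 to 8.20), and 8.06% (2.67 to 17.8) held Npy against 20.3% (17.8 to 23.0). The intervals for Tac2 overlapped and those for Npy met at 17.8, and the Vip-rich nuclei had a median of 7830 UMIs against 6460. Of 25 Cck-rich CGE-type nuclei, 28.0% (12.1 to 49.4) held Tac2 against 6.52% (5.07 to 8.23), with a median of 11368 UMIs against 6462. None of 15 Npy-rich CGE-type nuclei held Vip, which allows a share of up to 21.8%, against 21.8% (19.3 to 24.5) of the rest, so an absence of the pair could not be read from so few nuclei. Pnoc was held by 33.3% of these 15 (11.8 to 61.6) and by 10.8% (8.97 to 12.9) of the rest, and these intervals overlapped. The 15 had a median of 10115 UMIs against 6475, and the part of depth was not tested.

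The receptors of these peptides were followed by CPM. Trhr, the thyrotropin-releasing hormone receptor, was at 54.2 CPM in layer 5 neurons and 3.77 CPM in non-neuronal nuclei. Vipr2 was at 40.1 CPM in thalamic neurons against 5.03, and Vipr1 at 32.4 CPM in cortical-type excitatory neurons against 8.65. Crhr1 was at 53.8 CPM in upper-layer neurons against 11.7. In layer 6 neurons, Cckbr was at 30.4 CPM against 8.91 and Ntsr1 at 13.2 CPM against 2.81. Each of these 6 was above background in 6 of 6 libraries in that class. Npy1r was highest in CGE-type interneurons, at 15.3 CPM against 7.14, and Sstr2 in dentate granule neurons, at 17.8 CPM against 6.37. The top genes of this dentate class included Il16, Ccbe1, Shisa6 and Grik4. At cluster resolution 2 these were top genes of a cluster of 537 nuclei named hippocampal pyramidal neurons. Whether the dentate class holds both kinds was not tested. Ntsr2 was highest in astrocytes, at 176 CPM, and Crhr2 in choroid plexus, at 46.3 CPM. The class named for each receptor is its highest named class, neuronal or not, and was picked by its values. Of the 20 receptor genes, 2 were at least 2-fold higher than background and 4 at least 2-fold lower in MGE-type nuclei, where 31.8% of all genes were lower and 7.67% higher. In CGE-type nuclei 4 were higher and 4 lower, beside 7.97% and 34.4% of all genes. In cluster 2, 8 were higher and 1, Ntsr2, was lower, beside 9.69% and 24.3%. Of those higher, Trhr2 in MGE-type nuclei, Sstr4 in CGE-type nuclei and Cckar and Trhr2 in cluster 2 were under 1 CPM.

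Of 12 genes for peptide processing and dense-core vesicles, Pam, the enzyme that amidates the ends of peptides, was at least 2-fold higher in MGE-type nuclei (658 CPM against 232) and in CGE-type nuclei (521 CPM). Cadps2, a priming factor for dense-core vesicles, was at 643 CPM in CGE-type nuclei against 145. Cpe was at least 2-fold lower in MGE-type and CGE-type nuclei and in cluster 2 and was highest in astrocytes, and Pcsk1n was at least 2-fold lower in MGE-type nuclei. Of the 12, 1 was thus higher and 2 lower in MGE-type nuclei, beside 7.67% and 31.8% of all genes. In CGE-type nuclei 2 were higher and 1 lower, beside 7.97% and 34.4%, and in cluster 2 0 and 1, beside 9.69% and 24.3%. Of 6 genes for peptide-binding or peptide-cleaving proteins, 3 were at least 2-fold higher in MGE-type nuclei and none was lower, beside 7.67% and 31.8% of all genes. In CGE-type nuclei Trhde was higher (220 CPM) and Crhbp lower (0.660 CPM), and in cluster 2 none was either. The values in MGE-type nuclei follow. Crhbp, which binds corticotropin-releasing hormone, was at 14.9 CPM against 2.34. Trhde, which degrades thyrotropin-releasing hormone, was at 476 CPM against 106, and the neprilysin gene Mme was at 31.6 CPM against 13.6. None of 18 other neuropeptide precursors with enough UMIs was at least 2-fold higher in MGE-type or CGE-type nuclei, where 7.67% and 7.97% of all genes were, and 7 and 8 of the 18 were at least 2-fold lower, beside 31.8% and 34.4%. In cluster 2, 2 were higher (Ucn3 and Nmu, both under 1 CPM) and 2 lower (Penk and Npff), beside 9.69% and 24.3% of all genes. Among the 18, Penk was at 68.3 CPM in striatal neurons against 24.9 and Tac1 at 41.9 CPM against 18.5. Both were among the fixed markers that named the striatal class and were not held out of the clustering. Their high level there was thus partly set by the naming.

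For each peptide gene, the 3 genes whose CPM followed it most closely over the 37 clusters were listed. Sst and Cck shared 2 of their 3. For Sst they were Atp6v0c, Rab3a and Ndufa12, each at r = 0.96, and for Cck Atp6v0c, Rab3a and Tubb2a, each at r = 0.96, which encode a proton pump subunit, a vesicle protein, a mitochondrial subunit and a tubulin. For Vip they were Pnoc (r = 0.83), Yjefn3 (0.80) and Tac2 (0.70), and for Crh Yjefn3 (0.75), Tspyl3 (0.73) and Vip (0.72). Npy was most like Sst (0.92), Gm42418 (0.92) and Ndufa12 (0.91), and Tac2 was most like Npy (0.84), Arl4c (0.79) and Pdhb (0.77). For Pnoc they were Vip (0.83), Fbxo8 (0.77) and Yjefn3 (0.75), so that Yjefn3 stood in 3 of the lists. Cort was followed by Fzr1 (0.78), Clec2l (0.75) and Frs3 (0.72), Nts by Surf1 (0.89), Fkbp8 (0.87) and Agpat1 (0.87), and Trh by Amn (0.74), Sdr39u1 (0.74) and Zswim1 (0.71). Clusters share libraries and differ in depth, so these r are descriptions. Over 205 neuronal subclusters by UMIs per nucleus, none of the 3 leading genes of any of the 10 was among its 3 over the clusters. There Sst was most like Crhbp (r = 0.40), and Vip was most like Grpr (0.60), with Htr3a at 0.52. Pnoc was most like Dusp10 (0.61), Btbd11 (0.60) and Erbb4 (0.59).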

How the data were processed

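Single-nucleus RNA sequencing of forebrain from 3 wild-type and 3 Npc1-/- mice was used as 1 pooled matrix of 75878 barcodes. The deposited values are raw UMI counts per gene, which the authors made with Cell Ranger. The labels' processing notes name version 2.1.1 and mm10, and the matrix header names 6.0.0. The filters of the study's methods had not been applied to these counts. Libraries differed in depth, with totals of 51343653 to 107583300 UMIs. Nuclei with 10% or more mitochondrial UMIs were left out here.

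Counts were clustered in Scanpy 1.11.5 (3000 variable genes without the 10 members, 30 components, 20 neighbours, Leiden resolution 1 with leidenalg 0.10.2). Clusters were named from fixed marker lists (score of at least 1 and 0.25 above the next, 3 markers detected, top 10 genes). The joint names for cortical-type excitatory, striatal projection and olfactory-type or immature GABA neurons did not need the score of 1. Clusters 7 and 12, the cortical-type excitatory neurons, had best scores of 0.67 and 0.79. Subclusters used 2000 genes, 20 components and 15 neighbours. CPM are UMIs of a gene summed over a class per 1000000 UMIs of that class. Levels carry exact Poisson intervals, shares Clopper-Pearson intervals and ratios exact binomial intervals (SciPy 1.17.1). Shares were also computed after thinning each nucleus to 2000 UMIs, which left out 8229 shallower nuclei. TMM factors came from edgeR 4.0.16, without a test. In Poisson counts simulated from the class sums, the ratio intervals held the known ratios, and genes planted with a shared sharp pattern led the likeness ranking. Such counts hold no spread between libraries or nuclei, so these checks do not cover it. Scanpy's doublet caller marked 0 to 4 nuclei per library, so that it did not work here. The 10% of nuclei with the highest scores in each library are called high doublet scores, and no doublets were removed. Levels were compared within a gene. Genes were set side by side as shares of the captured peptide UMIs of a class or by their ratios to their own background.

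The text names the 10 members, for each the 3 genes of highest Pearson correlation of log2(CPM + 1) over clusters among 14868 genes with 10 CPM or more in a cluster, and members of the fixed lists (20 receptors, 12 processing genes, 20 other precursors and 6 partners). Subclusters and their leading genes were added after their values were seen. Members and lists were chosen with earlier results of these data known. The cell barcodes carry no key to mice, so genotypes were not compared. Sequences and loci came from GENCODE vM21 on GRCm38.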

Additional observations from a re-analysis of the deposited data

How the results depend on the processing

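No paired analysis was possible because no key ties the library numbers to mice, where a pair means a wild-type and an Npc1-/- mouse. Class and background were set side by side within each library, which needs no such key, and no test was run on them. The direction of 4 genes depended on the scale. The log2 CPM ratio over background of Sst in MGE-type nuclei (−0.14) was 0.26 with TMM factors, 0.81 by UMIs per nucleus and −0.34 as a mean of per-nucleus CPM. That of Cck in hippocampal neurons (−0.25) was 0.22 with TMM factors and 0.69 per nucleus, and that of Nts there (−0.27) was 0.20 and 0.67. Per nucleus, Npy reached 1.28, Pnoc 3.36 and Cort 2.13, and Trh turned to −0.28 as a mean of per-nucleus CPM. By UMIs per nucleus instead of CPM, the rank of the class among 22 became 1 for Sst, 1 for Cck and 2 for Nts. The cause was not tested.

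Without thinning, the share of nuclei with a UMI minus that in non-neuronal nuclei moved from −1.03 to 5.86 percentage points for Sst, −4.27 to 9.12 for Cck, 1.27 to 9.99 for Npy, 10.2 to 19.2 for Vip, 0.659 to 1.87 for Crh, 2.99 to 9.87 for Pnoc, 1.11 to 5.70 for Tac2, 0.587 to 3.67 for Cort and 2.01e-04 to 1.00 for Nts. Thinned to 1000 UMIs it was 1.36 for Pnoc, −0.0733 for Nts and −0.0739 for Trh. At that depth other differences shrank too. Cort was at 0.594% of MGE-type nuclei against 0.295% of non-neuronal nuclei. In CGE-type nuclei Tac2 was at 0.881% against 0.289% and Crh at 0.489% against 0.121%. With rich nuclei defined by 5 UMIs, 6 Sst-rich MGE-type, 3 Cck-rich CGE-type and 1 Npy-rich CGE-type nuclei were left, too few to read a difference from; the values were 70.2 points for Npy with Sst, 59.8 for Tac2 with Cck and −11.2 for Pnoc with Npy. Alternatives for co-detection were rich nuclei at 5 UMIs, the highest doublet scores left out and each library left out. Of all their values, 53 moved by less than their spread between libraries, 2 moved by at least that and 1 reversed in sign. Of the 3 genes of like pattern, Spearman correlation kept 1 for Sst, Npy, Crh, Tac2, Cort, Nts and Trh and 0 for Vip and Pnoc. Without the filter on low genes, 1 was kept for Trh, and over subclusters 0 for each of the 10.

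Leaving out 1 library at a time, the log2 CPM ratio ran from −0.16 to −0.08 for Sst, 0.65 to 0.82 for Npy, 3.46 to 3.84 for Vip, −0.36 to −0.18 for Cck, 1.55 to 1.94 for Crh, 2.71 to 2.93 for Pnoc, 1.76 to 2.16 for Tac2, 1.00 to 1.32 for Cort, −0.73 to −0.01 for Nts and −0.86 to 0.74 for Trh, which turned to −0.86 without library 4. The rank of the class ran from 7 to 9 for Sst, 11 to 13 for Cck, 7 to 14 for Nts and 2 to 19 for Trh, and was 1 for the others. The co-detection difference ran from 17.8 to 25.5 points for Npy in Sst-rich (MGE-type interneuron), 7.85 to 15.1 points for Cort in Sst-rich (MGE-type interneuron), 7.15 to 15.2 points for Tac2 in Vip-rich (CGE-type interneuron), −22.8 to −20.9 points for Vip in Npy-rich (CGE-type interneuron), 17.9 to 27.1 points for Pnoc in Npy-rich (CGE-type interneuron), 16.9 to 25.6 points for Tac2 in Cck-rich (CGE-type interneuron) and 31.8 to 61.6 points for Npy in Sst-rich (subcluster 2L).

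At resolution 0.5 no class of CGE-type, hippocampal or layer 5 neurons was named, so their results have no value there. The per-nucleus scale, the subclusters and their alternatives were added after the data were seen. For the subcluster ratios, 6 alternative values moved by at least their spread between libraries, and 102 moved by less. Counts of 25 UMIs (Crh) and 3 UMIs (Trh) limit these genes.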
